A study of Mus musculus with 61 samples.

Results

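SALL1 binding was mapped by chromatin immunoprecipitation and sequencing (ChIP-seq) in microglia of C57 and SPRET mice, and each strain has 1 deposited list of reproducible peaks made from 2 libraries. The C57 list held 15410 peaks and the SPRET list 2245 peaks, out of 21289 peaks in the 4 SALL1 lists of the series. A peak was called shared when it overlapped a peak of the other strain by at least 1 bp in the coordinates as listed, and C57-only or SPRET-only otherwise. By this rule 1593 C57 peaks and 1592 SPRET peaks were shared, 13817 peaks were C57-only and 653 were SPRET-only. The remaining SALL1 lists were from wild-type PWK microglia, with 3627 peaks, and from microglia of Sall1 enhancer knockout (EKO) mice, with 7 peaks.

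The study asks how SALL1 sets up the enhancers that define microglia, and the inbred strains bring sequence differences to the sites that SALL1 binds. The C57 mice were wild type on the strain labelled C57/Bl6. The SPRET mice carried the strain label Spret and the genotype label wild type. The SALL1 libraries of both strains came from brain and are labelled as whole microglia sorted as CD45+ CD11b+ CX3CR1+, whereas the methods of the study describe SALL1 ChIP-seq on sorted nuclei positive for SALL1 and PU.1. The methods state male C57 mice of 8 to 12 weeks, and the age and sex of the SPRET mice were not given in the sources used here. The acetylation data used beside the lists, H3K27ac ChIP-seq of sorted microglia, came from 2 wild-type and 2 EKO libraries, both on the C57/Bl6 strain, in which EKO is a deletion of a Sall1 super-enhancer made by CRISPR. Nothing in the labels says that the libraries of a group came from separate animals, so any spread between them may be technical.

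SALL1 is a zinc finger transcription factor of the Spalt family that microglia express and other macrophages mostly do not, and its loss turns microglia towards an inflammatory state. It acts at enhancers together with PU.1, the Ets factor that opens chromatin in all macrophages, and with SMAD4, which carries TGF-beta signals. An active enhancer carries H3K27ac, which the acetyltransferase p300 deposits. SPRET, a strain of Mus spretus, is separated from C57 by far more single-base differences than laboratory strains are from each other. The lists thus set the same factor in the same cell type side by side across extensive sequence change. A site missing from the SPRET list is not thereby shown to be unbound, and the role of sequence change was not tested.

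The 200 bp around the centres of the highest-ranked sites of each class show what kind of sequence SALL1 was found on. They are the first 3 shared, the first 2 C57-only and the first 2 SPRET-only sites, read from the GRCm38.p6 assembly of RefSeq, which has the mm10 coordinates of the files. This is the sequence of the C57BL/6J reference, so the SPRET alleles of the sites are not shown. Capitals mark GAGGAA, the core of the PU.1 motif, or its reverse complement.
Elmo1 site, shared, chr13:20207974-20208173, plus strand: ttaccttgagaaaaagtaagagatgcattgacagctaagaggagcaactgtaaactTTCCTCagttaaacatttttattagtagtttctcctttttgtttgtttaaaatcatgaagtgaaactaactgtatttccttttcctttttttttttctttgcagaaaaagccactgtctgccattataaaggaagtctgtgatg
Numb site, shared, chr12:83929323-83929522, plus strand: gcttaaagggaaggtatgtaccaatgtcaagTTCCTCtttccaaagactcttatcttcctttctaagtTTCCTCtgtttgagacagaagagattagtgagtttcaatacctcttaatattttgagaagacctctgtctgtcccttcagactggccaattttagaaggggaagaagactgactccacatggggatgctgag
Ssh2 site, shared, chr11:77386540-77386739, plus strand: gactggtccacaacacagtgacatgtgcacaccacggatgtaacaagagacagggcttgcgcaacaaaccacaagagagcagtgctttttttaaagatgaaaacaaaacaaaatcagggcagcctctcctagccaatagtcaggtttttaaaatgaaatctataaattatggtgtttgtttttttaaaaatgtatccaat
Lpar6 site, C57-only, chr14:73222609-73222808, plus strand: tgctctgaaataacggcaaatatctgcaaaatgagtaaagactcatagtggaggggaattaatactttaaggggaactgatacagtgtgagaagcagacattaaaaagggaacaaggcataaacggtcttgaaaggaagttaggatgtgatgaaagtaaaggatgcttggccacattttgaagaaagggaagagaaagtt
Lgmn site, C57-only, chr12:102451628-102451827, plus strand: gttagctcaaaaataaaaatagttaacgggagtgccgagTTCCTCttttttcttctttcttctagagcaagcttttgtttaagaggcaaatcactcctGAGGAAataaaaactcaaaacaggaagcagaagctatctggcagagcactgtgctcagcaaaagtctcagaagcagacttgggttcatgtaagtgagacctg
Hs3st1 site, SPRET-only, chr5:39630910-39631109, plus strand: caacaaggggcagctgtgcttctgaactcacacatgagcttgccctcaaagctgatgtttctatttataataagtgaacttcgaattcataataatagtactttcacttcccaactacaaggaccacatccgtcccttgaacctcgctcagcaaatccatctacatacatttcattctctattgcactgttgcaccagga
Coro6 site, SPRET-only, chr11:77442602-77442801, plus strand: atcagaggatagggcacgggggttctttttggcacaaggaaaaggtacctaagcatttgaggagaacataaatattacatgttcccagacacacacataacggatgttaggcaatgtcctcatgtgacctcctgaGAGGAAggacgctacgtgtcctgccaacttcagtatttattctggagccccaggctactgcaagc

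Motifs were counted on both strands of these 7 sites, here and in the counts that follow. The PU.1 core was present at 4, namely Elmo1, Numb, Lgmn and Coro6. The letters TATT, searched here as an AT-rich core of SALL motifs, were present at all 7, at some only as the reverse complement AATA. The Hs3st1 site, the highest-ranked SPRET-only peak, held TATT 5 times, the MEF2 consensus once and no GAGGAA. It did hold GGAANNGAA, a joined PU.1 and IRF site in which N is any base, 1 time, as did the Lpar6 site.

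Most of what was bound in SPRET was also in the C57 list, and little of the C57 list was found in SPRET. Of the SPRET peaks, 70.9% overlapped a C57 peak (exact binomial interval 69.0% to 72.8%, which here and below is at the 95% level and covers counting error only). Of the C57 peaks, 10.3% overlapped a SPRET peak (9.86% to 10.8%). The C57 list was 15410 peaks long and the SPRET list 2245, so the 2 shares have different ceilings. The files give no read totals for these libraries, and the depth behind each list is therefore unknown. The wild-type SALL1 and SMAD4 lists used here hold fewer peaks than the study describes, and peaks outside them were not analysed here. Each strain has 1 list, so there is no spread between samples and no test of these shares. The peaks also differed in size and score. The C57 peaks had a median length of 232 bp and a median enrichment score, the score deposited beside the reproducibility score, of 46.0. The SPRET peaks had a median length of 294 bp and a median enrichment score of 19.0. The highest score was 464 in C57 and 111 in SPRET. Scores were set by each strain's own libraries and are compared only within a list.

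The overlap was similar along the chromosomes. With each chromosome cut into 3 equal parts from its start, 72.5%, 71.8% and 69.2% of the SPRET peaks were shared, and the intervals of the 3 shares overlapped. By chromosome the share ran from 60.0% on chromosome 18, where 33 of 55 SPRET peaks were shared, to 81.3% on chromosome X, where 39 of 48 were. The C57 list had 7 peaks on chromosome Y and the SPRET list 0.

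The overlap followed rank in both strains, with each list cut into 10 bins of equal size. In the first bin of the SPRET list, 217 of 225 peaks were shared (96.4%, interval 93.1% to 98.5%), and all of its first 10 peaks were. The share was lower in each later bin down to 44.6% (38.0% to 51.4%) in the ninth, and it was 45.1% in the last. In C57, 616 of the 1541 peaks of the first bin were shared (40.0%, 37.5% to 42.5%), 14.1% of the third bin and 0.909% of the last. Of the first 100 C57 peaks 62 overlapped a SPRET peak, and of the first 100 SPRET peaks 97 overlapped a C57 peak. Among the shared pairs the ranks in the 2 lists rose together (Spearman's rho 0.57 across 1593 pairs, a description over regions of the same libraries).

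**Figure D1:**
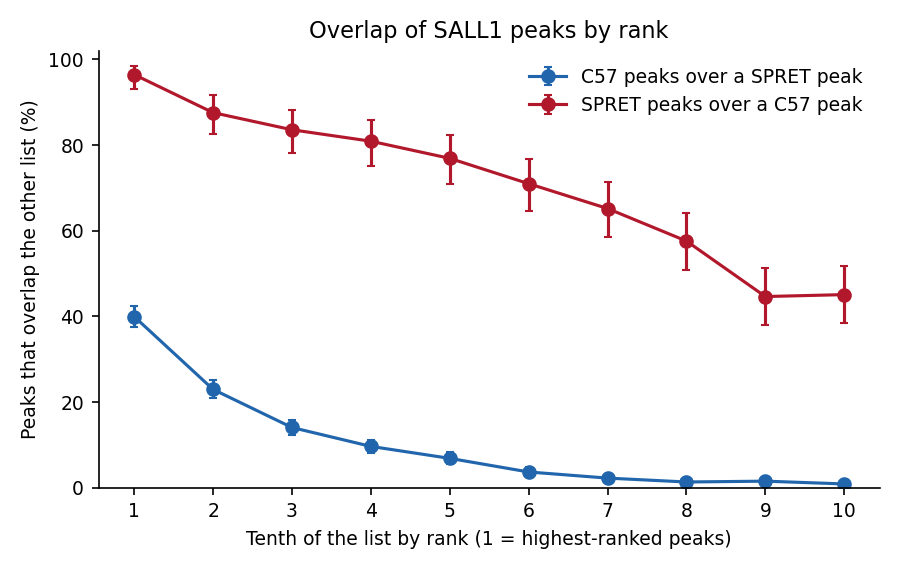
Share of SALL1 peaks that overlap a peak of the other strain (y axis, percent) in 10 equal bins of each list from the highest to the lowest rank (x axis), for C57 peaks (blue) and SPRET peaks (red); points are shares and bars are exact 95% binomial intervals. The SPRET curve starts at 96.4% and ends at 45.1%, and the C57 curve starts at 40.0% and ends at 0.909%.

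Cutting both lists to the same length lowered the SPRET share. Against the first 2245 C57 peaks, ranked by reproducibility score and then by enrichment score, 815 SPRET peaks were shared (36.3%, 34.3% to 38.3%). A further 777 SPRET peaks (34.6%) overlapped C57 peaks that ranked below that cut, and 653 (29.1%) overlapped none. Seen from C57, 816 of the first 2245 peaks were shared and 1429 (63.7%) were not, while 777 of the 13165 lower C57 peaks were shared (5.90%). The cut itself fell within ties, since the last C57 peak inside it and the first outside it both had an enrichment score of 112, and 39 C57 peaks carried that score.

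A SPRET-only peak was often close to a C57 peak without touching it. Of the 653 SPRET-only peaks, 54 lay within 500 bp of a C57 peak, 305 (46.7%) within 5000 bp and 465 (71.2%) within 20000 bp. For the 1429 C57-only peaks of the equal-length list, 43 lay within 500 bp of a SPRET peak and 563 (39.4%) within 20000 bp. The lists searched differ in length, so these shares are not compared with each other.

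PWK, a second wild-derived strain, gave a list that was not used to form the classes. Its peaks overlapped 604 of the 1593 shared C57 peaks (37.9%, 35.5% to 40.4%), 1799 of the 13817 C57-only peaks (13.02%, 12.5% to 13.6%) and 57 of the 653 SPRET-only peaks (8.73%, 6.68% to 11.2%). Within the first 2245 C57 peaks, PWK held 53.2% (49.7% to 56.7%) of the shared and 41.9% (39.3% to 44.5%) of the C57-only peaks. Seen from PWK, 66.2% of its 3627 peaks overlapped a C57 peak and 18.3% a SPRET peak, and 59 overlapped a SPRET peak and no C57 peak. The EKO list, of 7 peaks, overlapped 2 of the shared C57 peaks, 2 of the C57-only peaks and 0 of the SPRET-only peaks.

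The classes lay in similar places, mainly away from promoters. Places were taken from the table of 133129 windows of 1000 bp over which H3K27ac had been counted, by the window whose centre was nearest to the peak's. Of the shared C57 peaks, 97.4% lay over a window, as did 85.4% of the C57-only and 71.1% of the SPRET-only peaks. Over 3000 bp from the nearest transcription start site (TSS), here called distal, lay 83.7% of the shared, 80.9% of the C57-only and 83.0% of the SPRET-only peaks with a window, compared with 69.9% of all windows. Introns held 48.4%, 50.5% and 51.5% of the classes in this order and intergenic sequence 40.6%, 36.9% and 36.4%. Promoters held 6.19%, 7.88% and 6.90%, against 14.0% of all windows. The median distance to the TSS was 18.8 kb for shared, 17.3 kb for C57-only and 17.7 kb for SPRET-only peaks. The peaks were spread over many genes, with 1131 nearest genes for shared C57 peaks, 5446 for C57-only and 415 for SPRET-only peaks. The last count covers the 464 SPRET-only peaks with a window, and the other 189 have no annotated place here.

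H3K27ac in wild-type C57 microglia was high under shared peaks and lower under both other classes. The median window under a shared peak had 63.6 normalized tags in library 1 and 45.8 in library 2. For C57-only peaks the medians were 31.2 and 24.9 tags, and for SPRET-only peaks 30.2 and 25.9 tags. Windows with no SALL1 peak of either strain had medians of 7.39 and 6.97 tags. Both libraries gave this order for shared peaks, the pair of single-strain classes and the windows without a peak, while the order of the 2 single-strain classes turned between the libraries. At equal list length shared peaks were not the higher ones, with medians of 86.6 and 58.7 tags for the shared and 89.5 and 61.7 for the C57-only peaks of the first 2245. SPRET-only peaks differed by rank too. The 124 windows of those among the 1122 best-ranked SPRET peaks had medians of 41.5 and 31.4 tags, and the 340 windows of the others 28.1 and 23.4. Regions are not replicates and 2 libraries allow no test, so these are descriptions. H3K27ac was measured in C57 mice only, and no acetylation from SPRET was analysed here.

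**Figure D2:**
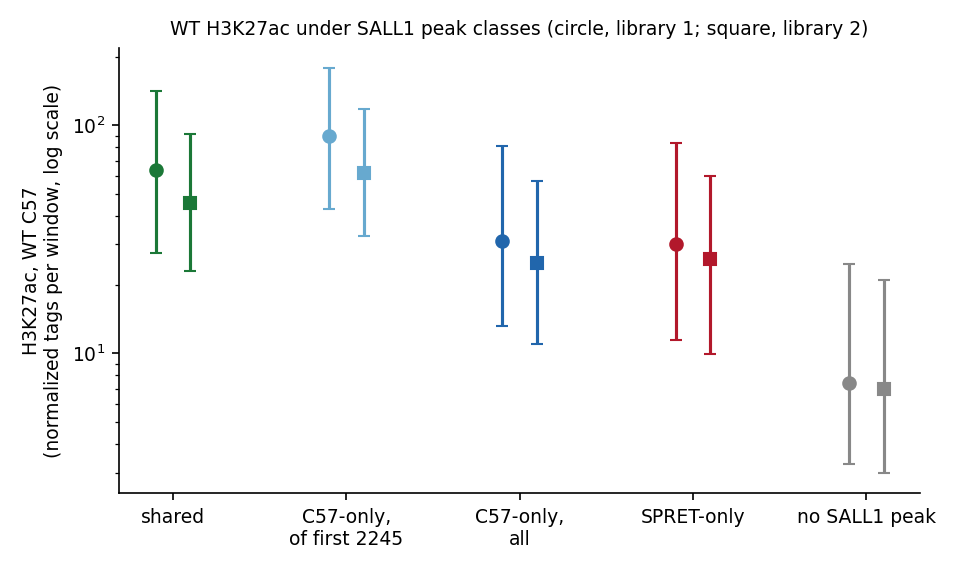
H3K27ac of wild-type C57 microglia in the windows under each SALL1 peak class (y axis, normalized tags per window of 1000 bp, log scale) in library 1 (circles) and library 2 (squares); markers are medians over windows and bars run from the lower to the upper quartile. In library 1 the C57-only peaks of the equal-length list lie highest, with a median of 89.5 tags, and all shared peaks lie below them at 63.6. The full C57-only and SPRET-only classes lie at 31.2 and 30.2, and windows without a SALL1 peak at 7.39. Shared peaks of the equal-length list, which had a median of 86.6 tags, are not drawn.

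Among the full classes, SMAD4, p300 and H3K27ac regions of PU.1+ nuclei covered shared peaks most often. H3K27ac regions of NeuN+ and Olig2+ nuclei covered the full classes at similar shares. SMAD4 peaks of wild-type microglia overlapped 30.1% (27.8% to 32.4%) of the shared C57 peaks, 12.9% (12.3% to 13.4%) of the C57-only and 8.88% (6.81% to 11.3%) of the SPRET-only peaks. For p300 the shares were 53.7% (51.3% to 56.2%), 24.9% (24.2% to 25.6%) and 13.2% (10.7% to 16.01%). In the SMAD4 list of the libraries labelled SMAD4-conditional KO, whose file and input names say EKO instead, so that its genotype is uncertain, the shares were 18.2%, 6.77% and 4.90%. Regions with H3K27ac called in PU.1+ nuclei, which contain the microglia, covered 68.2% of the shared, 36.1% of the C57-only and 32.2% of the SPRET-only peaks in library 1 and 92.8%, 71.5% and 61.1% in library 2. The same lists for neuronal NeuN+ nuclei covered 15.7%, 15.7% and 13.5% in library 1, and for Olig2+ nuclei of the oligodendrocyte lineage 14.7%, 14.8% and 13.5%. In library 2 these shares were 14.4%, 14.7% and 13.02% for NeuN+ and 15.2%, 14.7% and 14.9% for Olig2+ nuclei, and the intervals of the 3 classes overlapped in all 4 libraries. At equal list length, p300 covered 69.9% (66.6% to 73.0%) of the shared and 63.8% (61.3% to 66.3%) of the C57-only peaks. SMAD4 covered 39.0% (35.6% to 42.4%) and 37.6% (35.1% to 40.2%), intervals that overlap. PU.1+ regions covered 84.1% of both in library 1 and 98.5% and 98.3% in library 2. Of all 133129 windows, SMAD4 covered 4.89% and p300 9.6%. In libraries 1 and 2, PU.1+ regions covered 20.2% and 47.3% of all windows, NeuN+ regions 31.3% and 29.8%, and Olig2+ regions 26.9% and 26.0%. The windows of 1000 bp are longer than the peaks, so these shares are not on the same scale. All cofactor and nuclei lists are from C57 mice, so they describe the C57 state of the sites.

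**Figure D3:**
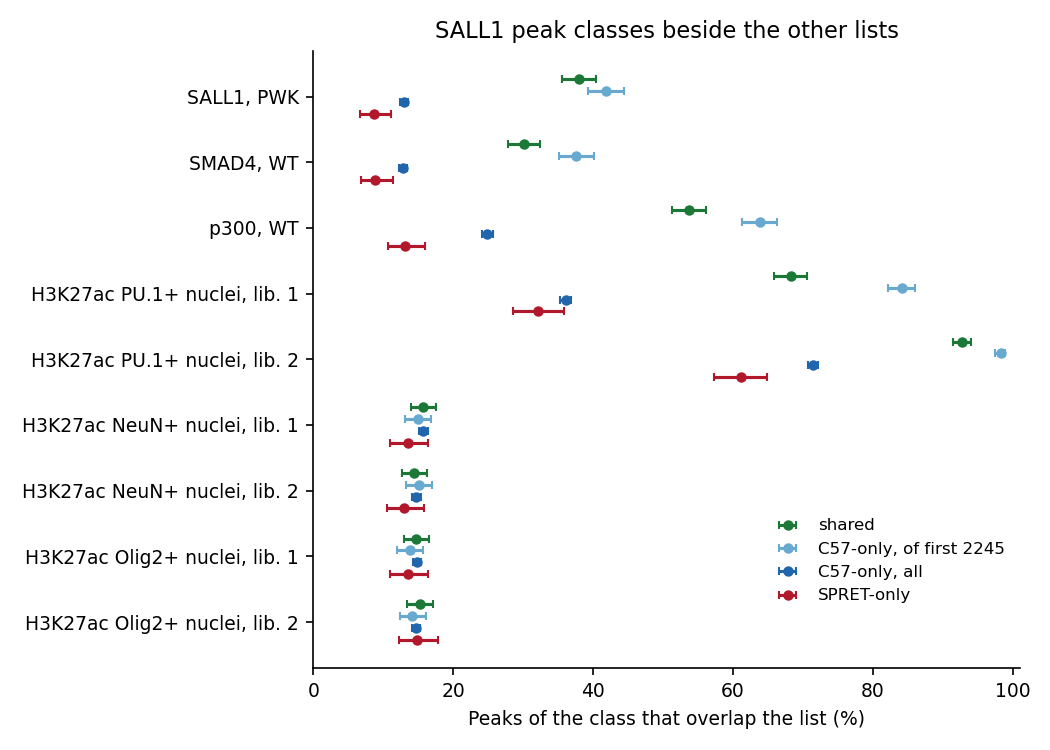
Share of each SALL1 peak class (x axis, percent) that overlaps the PWK SALL1, SMAD4 and p300 lists and the H3K27ac lists of PU.1+, NeuN+ and Olig2+ nuclei (y axis); points are shares and bars exact 95% binomial intervals. Shared peaks lie above both full single-strain classes in the SALL1, SMAD4, p300 and PU.1+ lists, with p300 at 53.7% of shared and 13.2% of SPRET-only peaks. The C57-only peaks of the equal-length list, drawn as their own series, lie above all shared peaks in these lists, with p300 at 63.8%. The classes lie close together in the NeuN+ and Olig2+ lists, at 15.7% of shared and 13.5% of SPRET-only peaks in NeuN+ library 1.

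Motifs were searched on both strands of the 200 bp around each peak centre in the mm10 reference, as the letters given, where N is any base. GAGGAA, the PU.1 core, was in 53.4% of shared C57 peaks, 45.2% of C57-only and 37.5% of SPRET-only peaks, against 34.8% of the central 200 bp of windows with no SALL1 peak. GGAANNGAA, a joined PU.1 and IRF site that can share its first letters with the PU.1 core, was in 20.8%, 15.7% and 12.9% of the classes and 8.96% of the other windows. TATT was in 76.5%, 76.7% and 79.2% against 51.6%, and the MEF2 consensus in 4.77%, 4.56% and 4.29% against 1.30%. TTGCNNAA, bound by C/EBP factors, was in 14.6%, 13.5% and 10.3% against 8.93%. The letters TGTGGT of RUNX factors were in 19.8%, 17.7% and 17.5% against 15.98%, TGANTCA of AP-1 in 7.09%, 7.61% and 8.12% against 7.51%, and GTCTAGA of SMAD factors in 2.20%, 2.05% and 2.14% against 1.78%. TATT was at least as common under SPRET-only as under shared peaks, and the PU.1 core was less common. TATT is short and rich in A and T, and the median GC content was 45.5% in shared, 44.5% in C57-only and 44.0% in SPRET-only peaks against 51.0% in the other windows. At equal list length the PU.1 core was in 54.2% of shared and 57.04% of C57-only peaks, and in 44.3% of the SPRET-only peaks among the 1122 best-ranked SPRET peaks and 35.2% of the others. Sequence masked as repeat made up over 50% of the 200 bp in 4.02% of the shared, 9.80% of the C57-only and 9.50% of the SPRET-only peaks, and 4.89% of the other windows. The part of repeats in the class sizes was not tested.

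**Figure D4:**
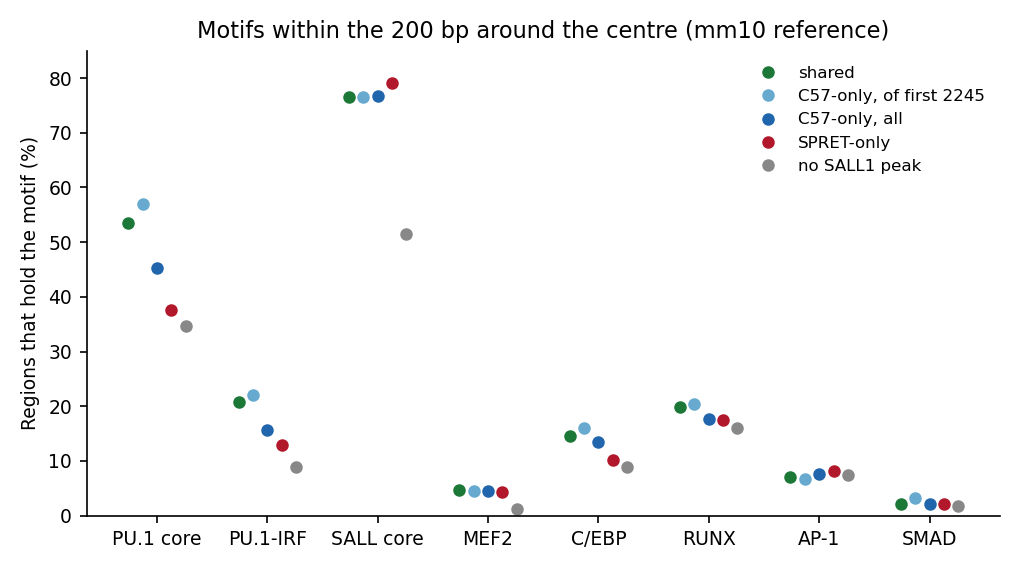
Share of regions (y axis, percent) whose central 200 bp in the mm10 reference hold each motif (x axis), for the SALL1 peak classes and for windows without a SALL1 peak (grey). The PU.1 core falls from 53.4% in shared to 37.5% in SPRET-only peaks, while TATT is at 76.5% and 79.2% in these classes and is at 51.6% in the other windows.

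The 10 shared sites that ranked best in both lists, with C57 ranks from 1 to 70 and SPRET ranks from 1 to 12, were all covered by p300 and by H3K27ac regions of PU.1+ nuclei, and 8 of 10 by SMAD4 and by PWK SALL1 peaks. The first was in an intron of Elmo1, an adaptor of the engulfment machinery, at chr13:20207966-20208181, with rank 2 and a score of 454 in C57 and rank 1 and a score of 111 in SPRET. The next, at -7424 bp from the TSS of Numb, an inhibitor of Notch signalling, lay at chr12:83929300-83929544, with rank 1 and a score of 464 in C57 and rank 2 in SPRET. The third was in an intron of Ssh2, a phosphatase of the actin regulator cofilin, with scores of 387 and 98. These sites differed widely in acetylation. The wild-type windows held 189 and 89.6 tags at Elmo1, 39.0 and 32.8 at Numb and 209 and 106 at Ssh2. Others were an intron of Rnf169, a factor of the DNA damage response, an intron of Ppfia4 whose nearest listed gene is Myog, the muscle regulator, an intron of Fkbp5 (nearest listed gene Tulp1), an intron of Gins1, a subunit of the replicative helicase, and sites nearest to Gm10790 and E230029C05Rik.

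The 10 highest C57-only peaks ranked 3 to 26 in C57, with scores of 344 to 444, and none was overlapped in SPRET. They were not weak sites in other measures. Their wild-type windows held 77.2 to 401 tags in library 1 and 43.8 to 233 in library 2, p300 and both PU.1+ nuclei lists covered all 10, and PWK SALL1 peaks covered 9. The strongest lay at chr14:73222604-73222812 in an intron of Rb1, nearest to Lpar6, a receptor for lysophosphatidic acid, with a score of 444. The next was at -11864 bp from the TSS of Lgmn, the lysosomal protease legumain, at chr12:102451619-102451836, with a score of 423. Introns of Cyfip1, a subunit of the WAVE actin regulator, of Hpgd, which degrades prostaglandins, of Nav3 and of Adtrp followed, with scores of 403, 402, 346 and 345. The Cyfip1 peak was the one that PWK lacked, and its window had the highest acetylation of the 10, 401 and 233 tags. Intergenic peaks were nearest to Apbb1ip, an adaptor of integrin activation, Cebpg, a bZIP factor, Zswim6 and Gm35135.

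The 10 highest SPRET-only peaks, which by their choice lack a C57 peak and are described here with C57 data, ranked 34 to 233 in SPRET, with scores of 37 to 64, 4 lay outside every window, PWK peaks covered 0 and p300 peaks 1. The first was at chr5:39630862-39631156 in an intron of Hs3st1, a heparan sulfate sulfotransferase, with rank 34 and a score of 64. Its C57 window held 2.87 and 2.99 tags, close to background, and both Olig2+ nuclei libraries had an H3K27ac region there while neither PU.1+ library did. The second, at chr11:77442572-77442830 with a score of 53, was an exception, since its window held 253 and 139 tags and was covered by p300 and both PU.1+ libraries. It lies in Ssh2, the gene of the third shared site, and its nearest listed start site is that of Coro6, a coronin. Windows of the peaks nearest to Ltn1, a ribosome quality control ligase, Por, the cytochrome P450 reductase, Pip4k2a and Smap2 held 0.41 to 22.6 tags in library 1 and 2.99 to 12.9 in library 2. The peaks outside the windows were nearest, by protein-coding start sites of GENCODE vM21, to Bhlhe23, Rab28, Fam84a and Nedd1, at 46962 to 731663 bp.

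The genes with the most shared peaks are described first. Marcks, a membrane-bound actin regulator, and Zeb2, a transcription factor of macrophage identity, had 7 shared peaks each, of 17 and 20 C57 peaks. Gpr34, a microglial lysophospholipid receptor, Runx1, a transcription factor of early myeloid cells, and Tmsb4x, which binds actin monomers, had 6 each, of 15, 17 and 17. All of the SPRET peaks assigned to Marcks, Zeb2, Runx1 and Tmsb4x were shared. Of all SPRET peaks 70.9% were shared and of all C57 peaks 10.3%, and these genes were chosen for having the most shared peaks. Most C57-only peaks fell to Mbnl1, a splicing factor, with 22, and to Tmem135 and Tns3, with 19 each, followed by Ly86 and Mir5130 with 17 each. At Tns3, a focal adhesion protein, none of the 19 C57 peaks was found in SPRET. These 5 genes had 24, 21, 19, 20 and 20 C57 peaks in this order. Of all C57 peaks 89.7% were C57-only, so the C57-only counts of these 5 genes are near that share. Genes near many windows collect many peaks, and Marcks alone is the nearest gene of 109 windows and Zeb2 of 97.

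Sall1 itself had more SPRET-only peaks than any other gene. Of 8 SPRET peaks assigned to it, 4 were shared and 4 SPRET-only, and 7 of its 11 C57 peaks were C57-only. Of all SPRET peaks 29.1% were SPRET-only, and of all C57 peaks 89.7% were C57-only, a higher share than at Sall1. The counts are small, and Sall1 was the nearest gene of 65 windows. Cxcl13, a B cell chemokine, Gm15441, Nek7, a kinase of the inflammasome, and Rbm47, an RNA-binding protein, had 3 SPRET-only peaks each. The highest SPRET peak at Sall1, with rank 97 and a score of 48, lay at -138.4 kb from the TSS and overlapped the C57 peak at chr8:89182530-89182785, which had rank 2214 and a score of 113. The highest C57 peaks lay farther out. Between -348.7 and -365.0 kb C57 had a cluster of 4 peaks with scores of 177, 223, 192 and 89, and SPRET had 1 peak, of score 32, that overlapped the first of them. A shared peak in an intron 1.4 kb from the TSS scored 158 in C57 and 28 in SPRET. SPRET-only peaks lay at 4.1, -150.1, -274.1 and -525.6 kb, with scores of 12, 13, 16 and 22. At -274.1 kb the strains had separate peaks in the same window, C57 at chr8:89318046-89318356 and SPRET at chr8:89318575-89318942.

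**Figure D5:**
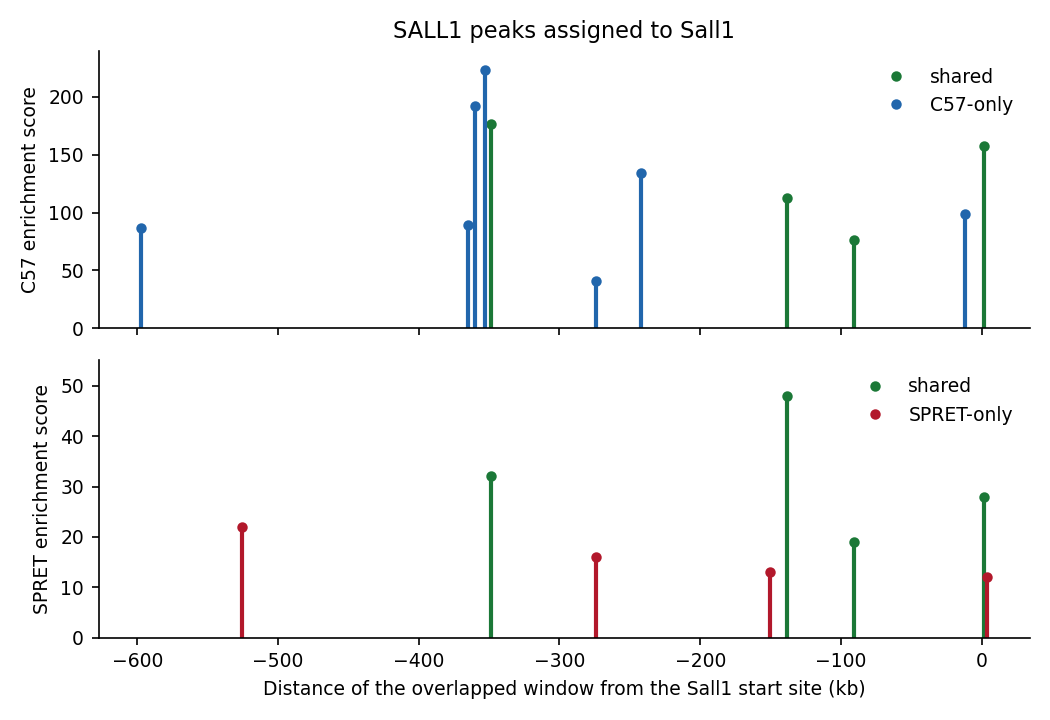
SALL1 peaks whose nearest gene is Sall1, by distance of the overlapped window from the TSS (x axis, kb, negative upstream) and enrichment score in C57 (top) and SPRET (bottom, on its own scale); green marks shared, blue C57-only and red SPRET-only peaks. The highest C57 peaks, with scores up to 223, stand around -352.7 kb, and the highest SPRET peak, with a score of 48, stands at -138.4 kb.

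Microglia identity genes often had a shared peak, and at equal list length their peaks were shared about as often as all peaks. Of all 19040 nearest genes of the windows, 29.9% had a C57 peak, 5.94% a shared peak and 2.18% a SPRET-only peak. Of the 34 genes of microglia identity, 32 had a C57 peak, 17 a shared peak and 5 (14.7%) a SPRET-only peak. The purinergic receptor gene P2ry13 had 4 shared of 8 C57 peaks, the phagocytic receptor gene Mertk 3 of 8, and the CSF1 receptor gene Csf1r, the TGF-beta receptor gene Tgfbr1, Fcrls and Selplg had 2 each. Bin1, C1qa, Cx3cr1, Entpd1, Gpr84, Itgam, Lpcat2 and Ltc4s had 1 each, and Gpr34 and Sall1 are given above. The neighbouring receptor gene P2ry12 had none, although its 4 C57 peaks scored 225, 127, 136 and 83 and the window of the strongest held 562 and 334 tags. The SPRET-only peaks of this list were at Bin1, Cx3cr1, Gpr34, Sall1 and Sparc. Among C57 peaks of the equal-length list, 26 of 69 were shared for these genes (37.7%), against 36.6% of all such peaks with a window.

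Among transcription factors, of 40 lineage factor genes in the windows, 16 (40.0%) had a shared peak, with 6 at Runx1, 5 each at Maf, a factor of macrophage differentiation, and Klf4, 4 at Sall1, and 2 each at Egr3, Fli1 and Fos. Batf, Ets1, Irf5, Irf8, Jun, Klf6, Mef2a, Mef2c and Rbpj had 1 each. At Mef2c, which encodes a MEF2 transcription factor, 1 of 16 C57 peaks was shared, with scores of 231 in C57 and 53 in SPRET. SPRET-only peaks of this list were at Sall1, at Mef2a with 2, and at Batf, Bhlhe41, Fli1 and Klf4 with 1 each. Of 26 cytokine and innate genes, 11 (42.3%) had a shared peak, among them the interleukin genes Il1a with 3, Il6 with 2 and Il1b with 1, Tlr7 with 3, Cd14 and Socs3 with 2, and Nlrp3, the inflammasome sensor, with 3 of 6 C57 peaks. Il10ra, Nfkb1, Tlr4 and Tlr9 had 1 each, and Il1b and Nlrp3 also had 1 SPRET-only peak. Of their C57 peaks in the equal-length list, 16 of 24 (66.7%) were shared. For the lineage factor genes 22 of 45 (48.9%) were, against 36.6% of all such peaks with a window. The counts are small, the lists were chosen with earlier results known and they were not tested. Of 38 TGF-beta pathway genes, 4 (10.5%) had a shared peak, Tgfbr2 with 3, Tgfbr1 with 2 and Itgav and Smad3 with 1, and Ski, a SMAD corepressor, had a SPRET-only peak. Of the C57 peaks of these genes in the equal-length list, 6 of 17 (35.3%) were shared.

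Markers of cell types were used to check the label. All 8 microglia markers had a C57 peak and 5 a SPRET peak. Of the 5 neuron markers, 1 had a C57 peak and 0 a SPRET peak, of 5 oligodendrocyte lineage markers 2 and 1, and of 4 astrocyte markers 1 and 0. Of all nearest genes 29.9% had a C57 peak, and for so few markers these neuron, oligodendrocyte and astrocyte counts are near that share. A peak is assigned through a window. Neuron markers had 1 to 8 windows each and microglia markers 13 to 65, and the oligodendrocyte marker Sox10 had 0, so no peak could fall to it. Border macrophage markers had 4 C57 peaks and 1 SPRET peak, at Mrc1, and monocyte markers 4 and 2, both of the latter at Ccr2. H3K27ac at the start sites of the microglia markers ran from 25.0 to 593 tags in wild-type library 1 and from 14.9 to 371 in library 2. At the start sites of the 3 of 5 neuron markers that had a window there it was at most 4.52 and 4.98 tags. The highest values in the other cell types were at Slc1a3, an astrocyte glutamate transporter gene, with 49.3 and 45.8 tags. None of its 11 C57 peaks was shared, and of all C57 peaks 89.7% were C57-only. In sorted cells a marker's level cannot tell fewer cells of a type from less signal per cell.

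EKO microglia do not express Sall1, and their H3K27ac was compared with wild type at the bound sites. All windows with a mean above 16 tags over the 4 libraries were tested by limma on quantile-normalized log2(tags + 1), with a call at an adjusted p below 0.05 and a fold above 2. Across 55285 windows, 3995 were lower (7.23%) and 5099 higher (9.22%) in EKO. Of 1413 tested windows under shared peaks, 95 (6.72%) were lower and 66 (4.67%) higher. Of 8846 under C57-only peaks, 689 (7.79%) were lower and 743 (8.40%) higher. Of 324 under SPRET-only peaks, 31 (9.57%) were lower and 20 (6.17%) higher. For lower windows these shares were near that of all tested windows, and for higher windows shared and SPRET-only peaks were below it. This comparison depended on the filter. Without it 4.91% of shared, 4.18% of C57-only and 5.19% of SPRET-only windows were lower, above the 2.19% of all windows. Higher were 3.06%, 4.52% and 3.03%, none below the 2.89% of all windows. Under the strongest C57 peaks, those of the equal-length list, both directions were called less often than over all tested windows. There 5.21% of the shared and 5.35% of the C57-only windows were lower, and 2.54% and 2.71% were higher. Without the filter 3.93% and 3.84% of them were lower, above the share of all windows. Higher were 1.97% and 2.13%, still below it. The median log2 fold change was -0.14 for shared, -0.07 for C57-only and -0.19 for SPRET-only windows and -0.01 for all. At equal list length it was -0.14 for shared and -0.18 for C57-only windows. Each library left out in turn lowered the counts by over 1.5 times. Without wild-type library 1 limma called 0 windows in any class, though 13518 of 56288 had an unadjusted p below 0.05, and on the values as deposited, where EKO library 1 lies above the others, 4 shared, 18 C57-only and 2 SPRET-only windows were lower.

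Among the named sites most windows passed no call. Of the 10 shared sites the Numb window was lower, with 39.0 and 32.8 tags in wild type and 43.2 and 11.2 in EKO as deposited and a log2 fold change of -1.04 ± 0.36 (SE, adjusted p = 0.0398, limma). The Rnf169 window was higher, with 107 and 46.8 against 271 and 103 tags (log2 fold change 1.01 ± 0.22, adjusted p = 0.00181). Both lay at the edge of the fold threshold, and 1 and 2 of 10 alternatives kept these calls. Of the 10 C57-only sites the Nav3 window was lower, with 246 and 130 against 180 and 53.8 tags (log2 fold change -1.09 ± 0.19, adjusted p = 0.000163), kept in 6 of 10. The deposited levels of the groups overlapped at all 3 of these windows, and the quantile-normalized values did not.

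The SPRET-only site at Hs3st1 was the exception in size. Its window, near background in wild type with 2.87 and 2.99 tags, held 185 and 41.1 tags in EKO, so that both EKO libraries lay far above both wild-type libraries. The window passed the filter of a mean above 16 tags through the EKO libraries alone. Its call is therefore a description and not independent support for a rise. The log2 fold change was 4.19 ± 0.47 (adjusted p = 5.2e-07, limma), with a range of 3.32 to 4.75 over 9 alternatives, of which 8 kept the call. Other SPRET-only windows that rose were at Gpr65, a proton-sensing receptor gene, with 36.1 and 15.9 against 399 and 92.6 tags (log2 fold change 2.68 ± 0.28, adjusted p = 1.67e-07), and upstream of Vcam1, an adhesion molecule gene, with 15.6 and 18.9 against 224 and 81.4 tags (2.58 ± 0.28, adjusted p = 3.24e-07). In each the groups did not overlap. These genes were chosen after their values were seen.

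Windows that fell under SPRET-only peaks included several with little left. At Eva1a the window held 59.1 and 71.7 tags in wild type and 9.03 and 4.48 in EKO (log2 fold change -3.53 ± 0.43, adjusted p = 1.89e-06), and at Rtn1 it held 69.0 and 67.7 against 12.04 and 7.47 (-3.06 ± 0.39, adjusted p = 2.81e-06). At Mlph it held 134 and 58.7 tags against 0 and 2.24. The groups did not overlap at any of these, and these genes too were chosen after their values were seen. Each of these windows passed the filter through the wild-type libraries alone. Around Sall1, whose super-enhancer is the deleted element, 10 of the 15 SALL1 peaks of either strain lay over a tested window, and H3K27ac was lower at all 10. These were 4 shared, 4 C57-only and 2 SPRET-only peaks. At the windows of all 15 peaks EKO held at most 14.05 tags in library 1 and 4.48 in library 2. Only windows high in wild type could therefore pass the filter of a mean above 16 tags. That all 10 were lower was thus largely set by the filter, and the other 5 peaks had no tested window. At the 2 SPRET-only windows wild type held 129 and 75.6 tags and 50.5 and 37.8 tags, and EKO at most 6.02 tags. The deleted element is a small part of the stretch from 4.1 to -525.6 kb that these windows span, so most of them lie outside it. A window inside it can hold no tags in EKO, and which windows do was not analysed here.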

How the data were processed

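SALL1 ChIP-seq peak lists of C57 and SPRET microglia were compared, with the H3K27ac window table and the PWK, EKO, SMAD4, p300 and nuclei lists beside them. Per the labels and methods, the authors mapped reads to mm10 with Bowtie2, called peaks per library with HOMER and kept reproducible peaks at an irreproducible discovery rate below 0.05. The deposited lists give a reproducibility score and an enrichment score, 1 list per strain with both libraries pooled. The deposited H3K27ac signal is tags per window of 1000 bp, scaled by the authors to a fixed total, and 100% of values were whole multiples of 1 tag (within 0.0051 tags plus 0.05% of the value). The nuclei lists hold a signal of normalized tags per region, of which the authors' positions alone were used. The sources used here describe no separate mapping of SPRET reads, and whether a strain genome was used for them, which would change what the SPRET list can hold, is not settled here. The EKO nuclei lists were not used here.

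Overlaps were computed in Python 3.11.15 with pandas 2.3.3, and exact binomial intervals with scipy 1.17.1. H3K27ac was tested with limma 3.58.1 as given in the report, after a check on simulated data, and with edgeR 4.0.16 (quasi-likelihood, TMM) and DESeq2 1.42.0 on recovered tags as alternatives. P-values were adjusted over all tested windows by Benjamini-Hochberg. A window under peaks of several classes counted as shared first, then as SPRET-only. Recovered tags per library in all windows ranged from 3954550 to 13372773. Sites were named by rank (the 10 best of each class) and genes by their number of peaks (the 5 highest per class, ties by symbol) or by membership of fixed lists, with exceptions stated. Nearest genes for peaks outside the windows came from GENCODE vM21, a choice made after seeing the data. The members and lists were chosen with earlier results of these data known. No adjusted value was computed over a list alone. One of the named shared sites is not reported here.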

Additional observations from a re-analysis of the deposited data

How the results depend on the processing

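The share of SPRET peaks that were shared (70.9%) was 63.5% with centres within 100 bp, 75.6% with peaks extended by 500 bp on each side, 80.2% for the better-ranked 50% of both lists and 85.1% for the better-ranked 50% of the SPRET list against all C57 peaks, and that of C57 peaks (10.3%) was 9.25%, 12.9%, 11.7% and 6.20%. Requiring 50% of the shorter peak moved neither past its interval, and the share at equal list length stayed between 35.4% and 37.0% in 3 alternatives. With distal set at 1000 bp, 92.1% of shared, 89.9% of C57-only and 91.0% of SPRET-only peaks were distal, and over any overlapped window 79.0% of C57-only peaks were. Median wild-type H3K27ac without either library ranged from 45.8 to 63.6 tags for shared, from 24.9 to 31.2 for C57-only and from 25.9 to 30.2 for SPRET-only windows. It was 75.6 tags for C57-only peaks of the equal-length list and 24.4 for distal SPRET-only windows. On values as deposited, 71 windows in all, 4 shared, 18 C57-only and 2 SPRET-only were lower in EKO, and 450, 2, 25 and 1 were higher. For C57-only peaks of the equal-length list the counts were 73 lower and 37 higher. Leaving out 1 library left 0 to 1811 windows lower in all, 0 to 55 shared, 0 to 339 C57-only and 0 to 20 SPRET-only, and 0 to 1581, 0 to 21, 0 to 227 and 0 to 5 higher, where the lone library of an arm is assumed to vary like the others. The 0 calls came without wild-type library 1, where 321 shared, 2189 C57-only and 83 SPRET-only windows had an unadjusted p below 0.05. edgeR on recovered tags called 3878 windows lower and 5851 higher in all, and DESeq2 2837 and 4290. Neither of these, a pseudocount of 5 nor the lack of a filter moved the count of a class by over 1.5 times. The lack of a filter did change how the shares of the classes compared with that of all windows, as given above.

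Replicate numbers of the H3K27ac libraries are shared between genotypes, but the deviations of same-numbered libraries hardly correlated (r = 0.039 over 55285 windows), so the libraries share a number only. With a replicate block 4201 windows were lower and 5274 higher, of them 99 and 70 shared, 712 and 766 C57-only and 31 and 20 SPRET-only. The SALL1 lists pool both libraries of a strain, so no replicate error can be given for any overlap.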

Other observations

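Other gene groups ranged widely beside the 5.94% of all nearest genes that had a shared peak. Of 18 interferon response genes, 16 were nearest to a window, 3 had a C57 peak and none a shared or SPRET-only peak. Of 24 genes raised in disease-associated microglia, 18 had a C57 peak and 4 (16.7%) a shared peak, with 2 each at Tyrobp, the adaptor of TREM2, and Cd9, a tetraspanin gene, and 1 each at B2m and Ccl6. SPRET-only peaks of that list lay near Lgals3, which encodes galectin-3, and Lyz2, which encodes lysozyme. Of the 25 lipid and apolipoprotein genes with a window, 3 had a shared peak, and of the 25 adhesion and integrin genes 6 (24.0%) did. Of 20 border-associated macrophage genes 6 (30.0%) had a shared peak, of 12 monocyte genes 1, of 11 oligodendrocyte lineage genes 1 and of 11 neuron and 8 astrocyte genes none. At equal list length the C57 peaks of these groups were mostly shared no more often than the 36.6% of all such peaks with a window. Shared were 4 of 12 for disease-associated, 6 of 19 for adhesion, 3 of 9 for border macrophage, 1 of 6 for lipid and 1 of 2 for monocyte genes.

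Ccr2, the chemokine receptor gene of monocytes, had a strong shared peak 11.5 kb upstream of its start site, at chr9:124090519-124090743, with scores of 167 in C57 and 39 in SPRET and an overlap in PWK. A SPRET-only peak with a score of 17 lay in the same window, which held 1.64 and 7.96 tags of H3K27ac in wild type and 17.1 and 13.4 in EKO and was not tested. A shared peak nearest to Klf4, at chr4:55801571-55801785, scored 56 in C57 and 33 in SPRET in a window with 1.23 and 1.99 tags in wild type. These sites were chosen after their values were seen.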
